A study of Homo sapiens with 9 samples.

Results

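The caveolin and cavin genes CAV1, CAV2, CAVIN1, CAVIN2 and CAVIN3 were taken by gene symbol from the deposited gene tables and compared over 3 related human breast epithelial cell lines. They are 5 of 62666 genes in the tables, and all 5 were among the 17910 genes with enough reads to test. MCF10A, a line of breast epithelium, does not form tumours. MCF10AT1 was derived from it with an activated HRAS oncogene, while MCF10Ca1a, of the same lineage, forms tumours. Each line was sequenced as 3 libraries of polyA RNA with a stranded kit, to follow expression along breast cancer progression. The medium of all 3 lines was DMEM/F12 with insulin, epidermal growth factor, hydrocortisone and cholera toxin, and it held 5% horse serum for MCF10A and MCF10Ca1a and 2.5% for MCF10AT1. The effects of serum and of line on MCF10AT1 therefore cannot be told apart. Each stage is represented by 1 cell line, and nothing in the labels says that replicates were separate cultures, so p-values measure the spread between these libraries, which may be technical.

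Caveolae are small flask-shaped pits of the plasma membrane. Caveolins are hairpin-shaped membrane proteins: CAV1 is the one on which caveolae of non-muscle cells depend, and CAV2 associates with it. Cavins form a cytoplasmic coat over them: CAVIN1 is required for caveolae to form, CAVIN2 helps to shape them, and CAVIN3 is a further coat subunit known for links to signalling. Caveolae buffer membrane tension and gather receptors, and CAV1 has been studied in mammary epithelium as a gene whose level differs between normal and transformed cells.

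CAV1 and CAV2 are neighbours on chromosome 7, and the other members are each on a chromosome of their own. On GRCh38, with GENCODE 29, CAV1 (ENSG00000105974) lies at chr7:116524785-116561184 on the plus strand. CAV2 (ENSG00000105971) lies upstream of it on the same strand at chr7:116287380-116508541, and 16243 bases separate the end of CAV2 from the start of CAV1. CAVIN1 (ENSG00000177469) lies at chr17:42402452-42423517, CAVIN2 (ENSG00000168497) at chr2:191834302-191847255 and CAVIN3 (ENSG00000170955) at chr11:6318946-6320647, all on the minus strand.

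The coding start of CAV1 is shown because transcripts that differ in it, described further on, had different shares in the lines. The longest CAV1 coding sequence, in transcript CAV1-201, has 178 codons. The 4 transcripts CAV1-202, CAV1-203, CAV1-205 and CAV1-209 have 147 codons and begin at an internal start codon, which is codon 32 of CAV1-201. The first 123 coding bases of CAV1-201, from the GENCODE 29 transcript sequences, run over chr7:116525063-116525092 in the first exon and chr7:116526525-116526617 in the second, with both start codons in capitals.
CAV1-201 coding start: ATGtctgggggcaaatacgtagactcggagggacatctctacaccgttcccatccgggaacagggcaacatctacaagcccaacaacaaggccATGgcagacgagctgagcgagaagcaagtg
The 93 bases before the second capital triplet are absent from the shorter coding sequence. As background, the longer and shorter proteins are known as the alpha and beta forms of caveolin-1, and the stretch they do not share carries the tyrosine phosphorylated by Src.

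RefSeq start windows (GRCh38.p14, the 250 bases before an annotated start) matched 3 of the 5 members, with 6 windows: 3 for CAV1, of which the 2 upstream ones largely overlap, 2 for CAV2 and 1 for CAVIN2. For the 2 CAV1 start regions and for CAVIN2, the member with the largest fall, the stretch of the window outside the gene's own GENCODE exons is shown, with any match to GGGCGG, the GC box, in capitals. The first is upstream of CAV1-201 at chr7:116524759-116524784, the second upstream of CAV1-202 and CAV1-203, which start downstream of the first CAV1 exon, at chr7:116526112-116526276, and the third upstream of CAVIN2, read on the minus strand, at chr2:191847256-191847338.
CAV1, upstream start: aataatctgcccaagcaccccagcgc
CAV1, downstream start: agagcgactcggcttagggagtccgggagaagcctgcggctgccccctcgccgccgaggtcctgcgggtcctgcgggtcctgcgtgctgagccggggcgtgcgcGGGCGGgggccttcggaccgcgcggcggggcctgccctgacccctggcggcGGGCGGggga
CAVIN2: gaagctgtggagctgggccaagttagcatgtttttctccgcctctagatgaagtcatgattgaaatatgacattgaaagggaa
The whole 250-base windows were searched on both strands for GGGCGG, for GGAATG (the core of the TEAD motif), for TGANTCA (AP-1), for CCAAT (the CCAAT box) and for TATAAA (the TATA box). GGGCGG occurred 3 times in each upstream CAV1 window, 2 times in the downstream one, 6 and 3 times in those of CAV2 and not in that of CAVIN2, and 42.5% of 34943 RefSeq windows held it. GGAATG occurred once, in the CAVIN2 window, and in 11.9% of all windows. That match lay in a GENCODE exon of CAVIN2. All GGGCGG matches of the upstream CAV1 windows and of the first CAV2 window also lay in exons of those genes. The AP-1, CCAAT box and TATA box letters, held by 6.6%, 32.0% and 10.8% of all windows, had no match in these 6. The windows of CAV1 had 18, 16 and 29 CpG, those of CAV2 had 35 and 27 and that of CAVIN2 had 4, against a median of 11 over all windows. These matches describe the letters of the windows only.

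Library depth was 62898823 to 69508842 estimated counts in MCF10A and MCF10AT1 and 32930503 to 35243012 in MCF10Ca1a, so depth and line cannot be told apart for MCF10Ca1a. HRAS, a check of the labels, had mean normalised levels of 41.0, 97.6 and 145 CPM (counts scaled to a common library size) in MCF10A, MCF10AT1 and MCF10Ca1a. The 8 epithelial markers listed had summed levels of 1796 to 2496, 2683 to 3055 and 2191 to 2270 TPM (scaled for transcript length and library size) in the 3 lines, and changed in both directions: in MCF10Ca1a against MCF10A 6 were higher, EPCAM, CDH1 and KRT19 among them, and KRT14 and KRT5 were lower, with KRT19 at only 2 to 6 counts in MCF10A. Endothelial cells, adipocytes, fibroblasts and muscle are rich in caveolae. Of their markers, CDH5, VWF, ADIPOQ, LEP and the fibroblast collagen COL1A2 had at most 3 counts in every library and the muscle marker MYOG had 0, and the other endothelial markers did not move together. PECAM1 was highest in MCF10Ca1a, while KDR went from 30 to 42 counts in MCF10A to 0 to 1 in MCF10Ca1a and TEK from 19 to 27 to 2 to 3. Of the 3 tested, 1 was higher and 2 were lower in MCF10Ca1a against MCF10A (median log2 change -2.09). Both adipocyte markers tested were higher in MCF10Ca1a than in MCF10A (median log2 change 5.32), PLIN1 at 296 to 314 counts against 2 to 6 and CIDEC at 14 to 16 against 1 to 4. In MCF10Ca1a the 5 endothelial markers, mostly PECAM1, summed to 15.7 to 20.8 TPM and the 5 adipocyte markers to 7.15 to 8.12, against at most 1.36 and 0.431 in the other libraries. The 6 fibroblast markers summed to 6.43 to 7.23, 27.6 to 31.5 and 1.93 to 2.32 TPM in the 3 lines (DCN at means of 3.61, 27.9 and 0.329 and COL1A1 at 3.06, 0.961 and 1.79), and the 5 muscle markers to at most 0.209.

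CAV1 was the most abundant member per length in every library, and the order below it changed little between the lines while the levels changed a great deal. In MCF10A the TPM order was CAV1, CAV2, CAVIN1, CAVIN3 and CAVIN2, with CAVIN1 (72.6 to 108) and CAVIN3 (68.5 to 85.1) overlapping. The same order held in MCF10AT1 with no overlap between neighbours. It held too in MCF10Ca1a, where CAVIN3 stood at 9.03 to 10.2 TPM and CAVIN2 under 0.05. CAV1 ranked between 153rd and 198th of all genes by TPM in MCF10A and MCF10AT1, and between 510th and 522nd in MCF10Ca1a. The 5 members together summed to 1104 to 1324 TPM in MCF10A, 1436 to 1498 in MCF10AT1 and 579 to 593 in MCF10Ca1a.

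**Figure D1:**
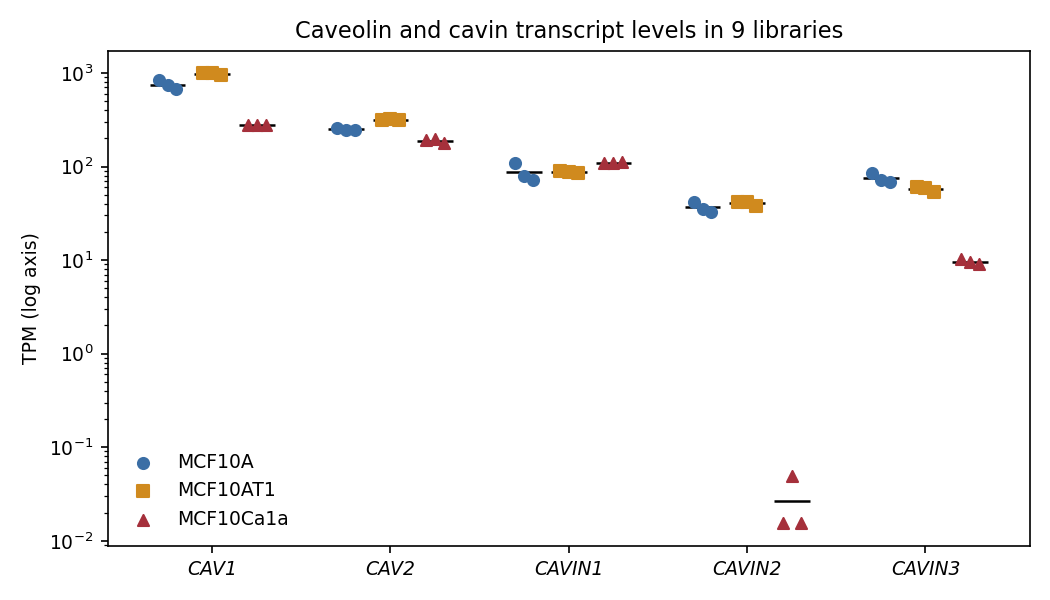
TPM (log axis) of the 5 members in each of the 9 libraries, with circles for MCF10A, squares for MCF10AT1 and triangles for MCF10Ca1a, and a line at the mean of each line's 3 libraries. CAV1, CAV2, CAVIN2 and CAVIN3 are lowest in MCF10Ca1a, CAVIN2 under 0.05 TPM, while CAVIN1 stays between 72.6 and 112 TPM in all 9.

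CAV1, the main structural caveolin, was higher in MCF10AT1 than in MCF10A and lowest in MCF10Ca1a. Its counts were 55763, 53156 and 55773 in the MCF10A libraries, 79752, 80115 and 72955 in MCF10AT1, and 9948, 9434 and 9975 in MCF10Ca1a. On the CPM scale these came to 829.95 ± 36.1 CPM in MCF10A, 1193 ± 16.9 in MCF10AT1 and 279.9 ± 1.73 in MCF10Ca1a (mean ± SD, n = 3 libraries). No library of one line overlapped another line. The log2 change was 0.52 (SE 0.054) for MCF10AT1 against MCF10A, with an adjusted p of 1.60e-06 by the quasi-likelihood test of edgeR, adjusted after Benjamini and Hochberg across the 17910 genes. From MCF10AT1 to MCF10Ca1a it was -2.09 (SE 0.0563, edgeR adjusted p = 8.57e-13), and from MCF10A to MCF10Ca1a -1.57 (SE 0.0554, edgeR adjusted p = 6.56e-12).

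Changes of these sizes stood among many others. In MCF10AT1 against MCF10A, 61.6% of all genes tested passed an adjusted p of 0.05 (29.8% higher and 31.8% lower), and 4 of the 5 members did, 3 of them higher (CAV1, CAV2 and CAVIN2) and 1 lower (CAVIN3). In MCF10Ca1a against MCF10AT1, 78.4% of all genes passed, 38% as higher and 40.3% as lower, and 4 of the 5 members were called, all 4 lower. In MCF10Ca1a against MCF10A, 80.9% passed, 39% as higher and 41.9% as lower, and all 5 members were called, 4 lower and CAVIN1 higher. In each comparison the CPM ranges of 4 of the 5 members did not overlap, all but CAVIN1, as was so for 65.4%, 81.9% and 81.5% of all genes in turn. On the log2(TPM + 1) scale limma called 3223 genes higher and 5712 lower in the first comparison and 7468 higher and 4744 lower in the second. That fit differed from the main one in test, normalisation and gene filter as well as unit, and edgeR on the deposited scaled counts called 4700 higher and 4855 lower, and 6440 higher and 6852 lower. With 5 members, the count called in each comparison is near the background share. The median absolute log2 change of all genes tested was 0.38, 0.76 and 0.84 in these 3 comparisons, which share lines, and the median signed change was between -0.05 and 0. In the fit of counts, the falls of CAV1, CAV2, CAVIN2 and CAVIN3 in MCF10Ca1a were larger than those medians of size in both comparisons. The changes of CAVIN1 were smaller in all 3. For CAV2 against MCF10A the margin was narrow (-0.90 against 0.84). Its falls were smaller with limma on log2(TPM + 1) (-0.75 and -0.42), where no median of size was computed.

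CAV2, the partner of CAV1, moved the same way as CAV1 in each comparison, and by less in both comparisons of MCF10Ca1a. Its counts were 13384, 13539 and 15530 for MCF10A, 18072, 18901 and 18174 for MCF10AT1, and 4144, 4049 and 3766 for MCF10Ca1a. The corresponding means were 213 ± 7.82, 283 ± 11.1 and 114 ± 7.21 CPM (SD, n = 3 libraries), without overlap between lines. CAV2 rose by 0.41 on the log2 scale (SE 0.0587, edgeR adjusted p = 4.03e-05) in MCF10AT1 against MCF10A. In MCF10Ca1a it was lower than in MCF10AT1 by a log2 change of -1.31 (edgeR SE 0.0603, adjusted p = 1.36e-10) and lower than in MCF10A by one of -0.90 (SE 0.0599, edgeR adjusted p = 5.11e-09).

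The CAV2 fall was smaller with limma on TPM than in the fit of counts. Per length, CAV2 stood at 251 ± 5.20, 317 ± 1.58 and 188 ± 9.29 TPM in the 3 lines (SD, n = 3), and the log2(TPM + 1) change was -0.75 for MCF10Ca1a against MCF10AT1 and -0.42 against MCF10A, both still called by limma (adjusted p = 1.20e-07 and 1.09e-05). On that scale the median of all genes shifted to -0.09, 0.18 and 0.08 in the 3 comparisons. CAV1 kept changes of -1.81 and -1.42 there. The ratio of CAV2 to CAV1 in TPM was 0.309 to 0.364 in MCF10A, 0.318 to 0.337 in MCF10AT1 and 0.632 to 0.700 in MCF10Ca1a. MCF10Ca1a thus lay apart from both other lines in this ratio, by 1.05 and 1.0 on the log2 scale (exact two-sided permutation p = 0.1, the smallest that 3 against 3 allow), and MCF10A and MCF10AT1 overlapped (difference -0.05, exact permutation p = 0.6).

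CAVIN1, the coat protein that caveolae require, was the 1 member without a fall in MCF10Ca1a. Its counts were 21812, 17523 and 18280 for MCF10A, 22164, 22020 and 20090 for MCF10AT1, and 11798, 11160 and 12327 for MCF10Ca1a. On the CPM scale, which allows for depth, the MCF10A libraries gave 340.1, 271 and 262, those of MCF10AT1 332, 332 and 324, and those of MCF10Ca1a 329.7, 332 and 348. The first MCF10A library was well above the other MCF10A libraries and lay within the range of the derived lines, so the lines overlapped.

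The CAVIN1 difference between MCF10AT1 and MCF10A was 0.18 on the log2 scale (95% interval 0.00 to 0.36, edgeR adjusted p = 0.0743). Between MCF10Ca1a and MCF10AT1 it was 0.03 (95% interval -0.15 to 0.21, edgeR adjusted p = 0.750). Between MCF10Ca1a and MCF10A it was 0.21 (95% interval 0.03 to 0.39, edgeR adjusted p = 0.0313). That last call was lost when any library other than the first of MCF10A was left out, with changes from 0.13 to 0.22 and adjusted p up to 0.174 by edgeR. Without the first MCF10A library, CAVIN1 was higher by 0.31 in MCF10AT1 (edgeR adjusted p = 2.15e-05) and by 0.32 in MCF10Ca1a (edgeR adjusted p = 6.54e-06), each against MCF10A. On the log2(TPM + 1) scale CAVIN1 was higher in MCF10Ca1a than in MCF10AT1 by 0.33 (limma adjusted p = 0.0224). Its ratio to CAV1 in TPM was 0.106 to 0.130 in MCF10A, 0.0882 to 0.0897 in MCF10AT1 and 0.391 to 0.399 in MCF10Ca1a, so CAVIN1 made up 18.4% to 19.3% of the members' summed TPM in MCF10Ca1a and 5.84% to 8.16% elsewhere.

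CAVIN2, a coat subunit that helps to bend the caveolar membrane, was nearly undetected in MCF10Ca1a. Its counts were 4943, 4555 and 4808 in MCF10A and 6148, 6058 and 5269 in MCF10AT1, but 1, 3 and 1 in MCF10Ca1a, where the mean was 0.0484 ± 0.0353 CPM (SD, n = 3). The lines did not overlap. Summed over 3 libraries and scaled to the normalised totals, CAVIN2 was 1879.5 times as abundant in MCF10AT1 as in MCF10Ca1a (95% counting interval 805 to 5789) and 1511 times as abundant in MCF10A (647 to 4653). Without molecular identifiers a count need not be a separate molecule, so these intervals hold counting error alone. The edgeR adjusted p values were 5.81e-15 and 2.24e-15. Between MCF10A and MCF10AT1 the means were 72.1 ± 4.37 and 89.5 ± 4.01 CPM (SD, n = 3), a log2 change of 0.31 (edgeR SE 0.0587, adjusted p = 4.00e-04). In TPM they were 36.6 ± 4.44 and 40.4 ± 2.45, overlapping, and that difference did not pass on the log2(TPM + 1) scale (0.15, limma adjusted p = 0.189).

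CAVIN3, the remaining coat subunit, was the 1 member with a fall at each step. Its counts were 2703, 2437 and 2754 for MCF10A, 2319, 2366 and 2069 for MCF10AT1, and 183, 152 and 160 for MCF10Ca1a. The means were 39.8 ± 2.26, 34.6 ± 1.19 and 4.71 ± 0.346 CPM (SD, n = 3), without overlap. The first step was small, a log2 change of -0.20 (edgeR SE 0.0563, adjusted p = 0.00720), and it was -0.38 on the log2(TPM + 1) scale (limma adjusted p = 0.00306). The second was -2.87 (SE 0.0726, edgeR adjusted p = 4.86e-13), which left MCF10Ca1a lower than MCF10A by a log2 change of -3.07 (edgeR SE 0.0724, adjusted p = 1.37e-13). CAVIN3 and CAVIN1 were at similar TPM in MCF10A, with ratios of 0.788 to 0.943, and far apart in MCF10Ca1a, at 0.0807 to 0.0944, with MCF10AT1 between at 0.635 to 0.671. Of the 9 comparisons of the 3 ratios between lines, 8 did not overlap and had the smallest exact permutation p of 0.1 (0.1125 adjusted over the 9). This test cannot reach 0.05 with 3 libraries against 3. The 9 share members and lines, and no share without overlap was formed over other pairs of genes. Among single genes, 65.4%, 81.9% and 81.5% did not overlap in the 3 comparisons.

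**Figure D2:**
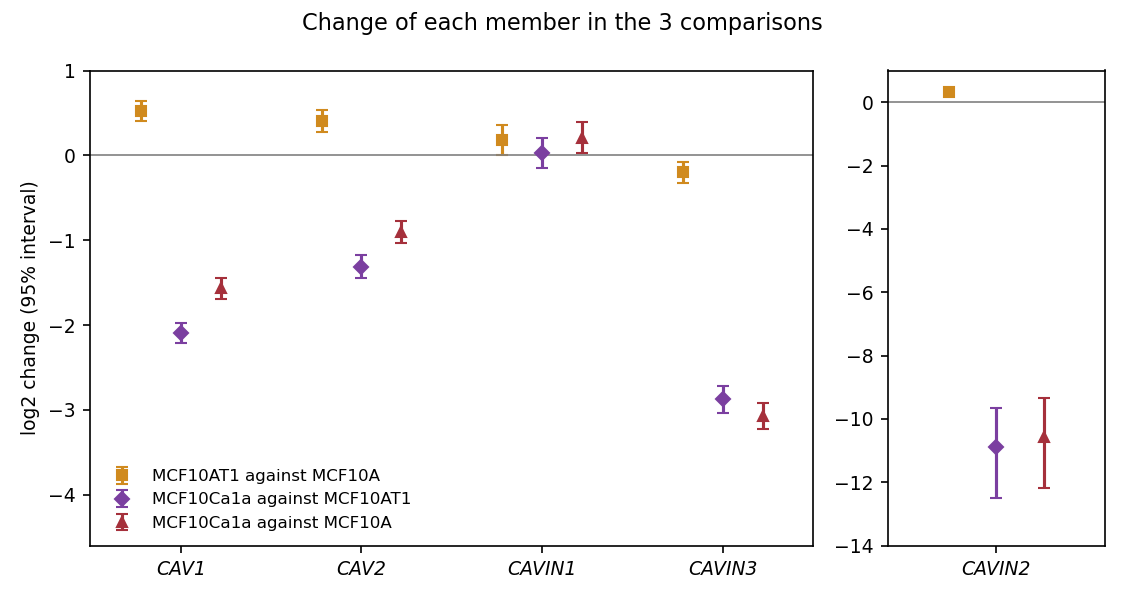
log2 change of each member in the 3 comparisons from the edgeR fit, with 95% intervals, CAVIN2 on an axis of its own, where the MCF10Ca1a points are ratios of summed counts with their counting intervals. CAV1 and CAV2 lie above 0 in MCF10AT1 against MCF10A and below 0 in both comparisons of MCF10Ca1a, CAVIN1 stays within 0.4 of 0, and the CAVIN2 values in MCF10Ca1a rest on 1, 3 and 1 counts.

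The transcripts of CAV1, CAV2 and CAVIN3 were mixed differently in MCF10Ca1a than in MCF10A and MCF10AT1. Each transcript was tested against the rest of its gene with limma on log2 ratios of estimated counts, and 2.53% of 71093 transcripts passed in MCF10AT1 against MCF10A, 15.5% in MCF10Ca1a against MCF10AT1 and 20.2% in MCF10Ca1a against MCF10A. In these comparisons 2, 5 and 6 of 9 CAV1 transcripts passed, 0, 3 and 4 of 5 tested CAV2 transcripts, and 1, 2 and 3 of 4 CAVIN3 transcripts. CAVIN1 and CAVIN2 have a single transcript in the tables and could not be tested. Salmon divides reads among overlapping transcripts by estimation, and the uncertainty of that division was not used here.

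For CAV1 the share of the 178-codon transcript fell along the series. CAV1-201 held 71.5% to 72.7% of the CAV1 TPM in MCF10A, 64.8% to 65.9% in MCF10AT1 and 54.2% to 56.2% in MCF10Ca1a. Against the rest of the gene it changed by -0.61 on the log2 scale in MCF10AT1 against MCF10A (limma adjusted p = 0.0213), by -0.59 in MCF10Ca1a against MCF10AT1 (limma adjusted p = 0.00631) and by -1.21 in MCF10Ca1a against MCF10A (limma adjusted p = 1.74e-04). CAV1-202, which begins at chr7:116526293 and has 147 codons, changed by 0.78 (limma adjusted p = 0.0246), 0.20 (limma adjusted p = 0.344) and 0.97 (limma adjusted p = 0.00177). The calls of CAV1-201 and CAV1-202 in MCF10AT1 against MCF10A were lost when any of the 6 libraries of those lines was left out, with changes of -0.64 to -0.59 and 0.75 to 0.81. Both were also lost with the replicate block, and that of CAV1-201 with TPM shares.

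Summed over the 4 transcripts with 147 codons, the share was 15.2%, 14.7% and 14.5% in the MCF10A libraries, 22.3%, 21.5% and 22.3% in MCF10AT1, and 32.2%, 29.5% and 28.7% in MCF10Ca1a. These sums were formed after the data were seen and are given without a test. The libraries of the 3 lines did not overlap. In level, the 147-codon transcripts stood at 111 ± 14.1, 215 ± 5.52 and 83.8 ± 4.15 TPM and CAV1-201 at 540.15 ± 50.2, 636 ± 21.2 and 154 ± 4.82 (SD, n = 3). Both classes were therefore highest in MCF10AT1 and lowest in MCF10Ca1a, at different proportions. Within the class, CAV1-205 went from 0.210% and 0.126% of the CAV1 TPM in MCF10A and MCF10AT1 to 2.28% in MCF10Ca1a, a log2 ratio change of 3.50 against MCF10A (limma adjusted p = 4.35e-04).

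For CAV2 the share of its main coding transcript was lower in MCF10Ca1a. CAV2-201, with 162 codons, held 75.7% to 77.6% of the CAV2 TPM in MCF10A, 67.2% to 69.8% in MCF10AT1 and 46.7% to 48.6% in MCF10Ca1a. Its log2 ratio changed by -0.49 in MCF10AT1 against MCF10A (limma adjusted p = 0.0849, but 0.0365 with a minimum of 50 counts and 0.0379 on TPM shares), by -1.42 in MCF10Ca1a against MCF10AT1 (limma adjusted p = 2.56e-04) and by -1.91 in MCF10Ca1a against MCF10A (limma adjusted p = 4.66e-05). Transcripts without a coding sequence, nearly all of it CAV2-214, a short transcript of 2 exons, held 8.34%, 8.02% and 8.44% of the CAV2 TPM for MCF10A, 11%, 7.69% and 6.63% for MCF10AT1, and 24.5%, 21.8% and 29.2% for MCF10Ca1a. MCF10Ca1a lay above both other lines. CAV2-214 itself changed by 2.13 in MCF10Ca1a against MCF10A (limma adjusted p = 0.00122), and its level was 19.9 ± 0.789, 25.8 ± 6.98 and 46.2 ± 4.70 TPM in the 3 lines (SD, n = 3), highest where CAV2 as a whole was lowest. Counting protein-coding transcripts alone, CAV2 stood at 230.3 ± 4.67, 290.2 ± 8.53 and 141 ± 13.9 TPM.

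For CAVIN3, transcripts annotated as retaining an intron took a larger share as the gene fell. They held 5.63%, 5.30% and 4.08% of its TPM for MCF10A, 11.7%, 11.1% and 13.0% for MCF10AT1, and 26.6%, 27.4% and 31.7% for MCF10Ca1a, without overlap. The coding transcript CAVIN3-201 changed by -0.77 against the rest of the gene in MCF10AT1 against MCF10A (limma adjusted p = 0.0509), by -0.97 in MCF10Ca1a against MCF10AT1 (limma adjusted p = 0.00583) and by -1.73 in MCF10Ca1a against MCF10A (limma adjusted p = 2.93e-04). Without the first MCF10Ca1a library, the first of these passed (-0.77, limma adjusted p = 0.0247), as it did with a share pseudocount of 1, a minimum of 50 counts and TPM shares (limma adjusted p = 0.0498, 0.0269 and 0.0276), but not with the replicate block. The retained-intron level was 3.80 ± 0.998, 6.82 ± 0.289 and 2.73 ± 0.125 TPM (SD, n = 3), against 71.4 ± 7.83, 50.4 ± 3.24 and 6.86 ± 0.664 for the coding transcripts. In MCF10Ca1a the whole gene had 152 to 183 counts, so its shares there rest on few reads. The MCF10Ca1a libraries also held fewer reads, and the part of depth in their shares was not tested.

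**Figure D3:**
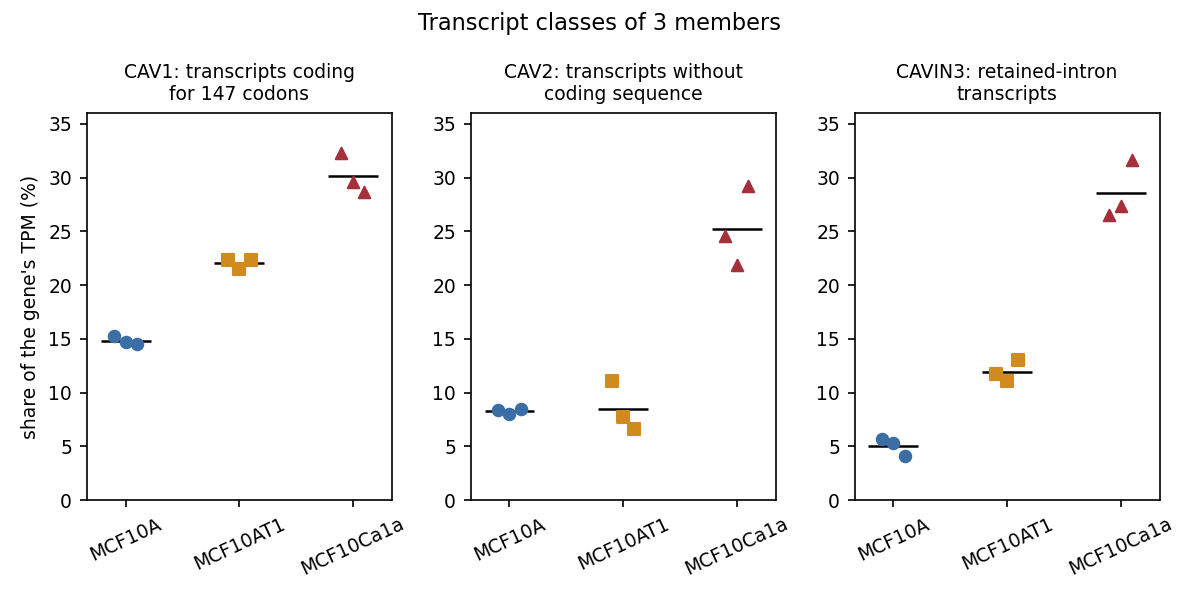
Share of the gene's TPM (%) in each library taken by CAV1 transcripts of 147 codons, CAV2 transcripts without a coding sequence and CAVIN3 retained-intron transcripts, with a line at the mean of 3 libraries. All 3 shares are highest in MCF10Ca1a, with means of 30.2%, 25.2% and 28.5%, and the CAV2 share overlaps between MCF10A and MCF10AT1.

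The muscle members of both families were absent or low. CAV3, the caveolin of skeletal and cardiac muscle, had 0 counts in all 9 libraries. CAVIN4, the muscle cavin, had 34 to 46 counts in MCF10A, 30 to 42 in MCF10AT1 and 5 to 11 in MCF10Ca1a, and its log2 change was -1.38 in MCF10Ca1a against MCF10A (SE 0.313, edgeR adjusted p = 0.00107). At under 0.35 TPM in every library, its level was far below that of CAVIN1.

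Of 12 caveola accessory genes, 11 were tested, and they changed in both directions. In MCF10AT1 against MCF10A, 5 rose and 4 fell (median log2 change 0.05). In MCF10Ca1a against MCF10AT1, 1 rose and 5 fell (median -0.10), and against MCF10A 3 rose and 7 fell (median -0.29), where the medians of all genes tested lay between -0.05 and 0. The 9, 6 and 10 of 11 called stand beside 61.6%, 78.4% and 80.9% of all genes. With limma on log2(TPM + 1), 3 rose and 4 fell, 4 rose and 4 fell, and 3 rose and 4 fell, of 10 tested. With edgeR on the deposited scaled counts, 5 rose and 2 fell in the first comparison. PACSIN1 had at most 4 counts in any library and was not tested. FLNA, filamin A, an actin cross-linker that binds CAV1, had 117 to 167 TPM in MCF10A, 121 to 137 in MCF10AT1 and 7.41 to 10.2 in MCF10Ca1a, a log2 change of -4.39 against MCF10A (SE 0.105, edgeR adjusted p = 1.59e-13). EHD3, a membrane-remodelling ATPase, was low throughout at 96 to 132 counts in MCF10A, 31 to 50 in MCF10AT1 and 0, 5 and 4 in MCF10Ca1a, and fell at both steps. Its second step was not called with limma on unfiltered log2(TPM + 1) (-0.15, adjusted p = 0.0523).

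EHD1, another ATPase of that family, rose at both steps, by log2 changes of 0.26 (edgeR adjusted p = 0.00546) and 0.75 (edgeR adjusted p = 2.68e-07), from 24.6 to 32.4 TPM in MCF10A to 58.2 to 60.2 in MCF10Ca1a. The first of these did not pass on the log2(TPM + 1) scale (0.10, limma adjusted p = 0.383). EHD2, the ATPase that sits at the caveolar neck, is named here outside the stated rules. It followed the direction of CAV1: it was higher in MCF10AT1 than in MCF10A (0.36) and lower in MCF10Ca1a than in MCF10AT1 (-0.75) and MCF10A (-0.40). On the TPM scale its libraries overlapped between MCF10A (43.4 to 65.0) and MCF10AT1 (59.0 to 60.3), and limma on log2(TPM + 1) called neither difference from MCF10A (0.21 and -0.26, adjusted p = 0.153 and 0.0587). DNM1, a dynamin, had the same directions at both steps (1.14 and -0.79, edgeR adjusted p = 2.39e-05 and 5.44e-04). It was not called in MCF10Ca1a against MCF10A (0.35, edgeR adjusted p = 0.0742), and limma on unfiltered log2(TPM + 1) called neither step. ROR1, a receptor tyrosine kinase reported to scaffold CAV1 with CAVIN1, was the most raised, at 2.52 to 3.28, 6.33 to 6.76 and 8.75 to 9.12 TPM, a log2 change of 1.38 in MCF10AT1 against MCF10A and 1.51 in MCF10Ca1a against MCF10A. Accessory genes were thus found on either side of 0 in each comparison.

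The flotillins and related raft scaffold proteins organise membrane domains without caveolin, and none of the 6 of 7 tested rose. In MCF10AT1 against MCF10A 4 fell (median log2 change -0.31), in MCF10Ca1a against MCF10AT1 5 fell (median -0.71), and in MCF10Ca1a against MCF10A 5 fell (median -1.09), where 31.8%, 40.3% and 41.9% of all genes tested were called lower. FLOT2, STOM, STOML1 and ERLIN1 fell at both steps, except that the second step of STOM did not pass on the log2(TPM + 1) scale (-0.06, limma adjusted p = 0.421). FLOT2, which forms complexes with FLOT1, had 61.7 to 85.5 TPM in MCF10A, 46.7 to 49.9 in MCF10AT1 and 29.6 to 31.6 in MCF10Ca1a, without overlap, and a log2 change of -1.34 over both steps. FLOT1 differed by -0.01 in MCF10AT1 against MCF10A (edgeR adjusted p = 0.867) and fell by 1.15 on the log2 scale in MCF10Ca1a against MCF10AT1. STOML3 had 0 counts in every library, and edgeR called no change of ERLIN2 (-0.09 to -0.04). With length-scaled, scaled or unfiltered counts, however, ERLIN2 was lower in MCF10Ca1a than in MCF10A (-0.18, -0.17 and -0.16, edgeR adjusted p = 0.0415, 0.0486 and 0.020), and likewise without the third MCF10A library (-0.14, edgeR adjusted p = 0.0279).

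**Figure D4:**
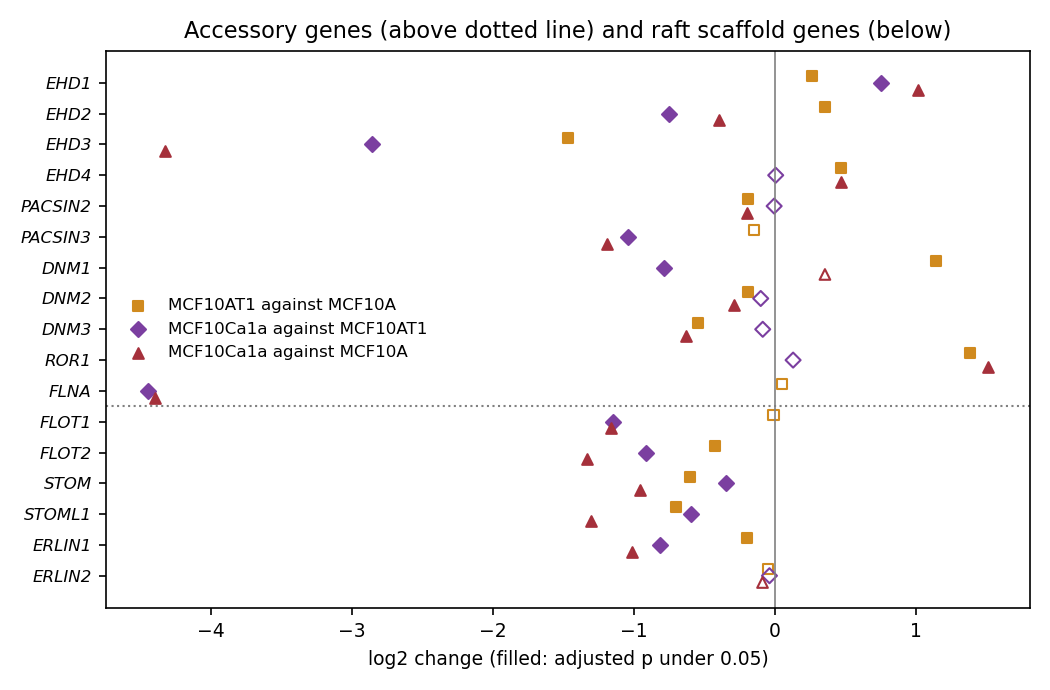
log2 change from the edgeR fit of counts in the 3 comparisons (squares, diamonds and triangles) of the tested caveola accessory genes above the dotted line and raft scaffold genes below it, filled where the edgeR adjusted p was under 0.05. FLNA and EHD3 lie beyond -4 in MCF10Ca1a against MCF10A, ROR1 and EHD1 lie above 1, and no raft scaffold gene has a filled mark above 0.

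The 16 caveolin-linked receptors and kinases were all tested and gave no common direction. In the 3 comparisons in turn 4 rose and 4 fell (median 0.06), 4 rose and 6 fell (median -0.13), and 6 rose and 9 fell (median -0.32). The 8, 10 and 15 of 16 called stand beside the same 61.6%, 78.4% and 80.9% of all genes. With limma on log2(TPM + 1), of 13 tested, 1 rose and 5 fell, 6 rose and 2 fell, and 4 rose and 5 fell. Without the first MCF10A library, 13 of the 16 were called by edgeR in the first comparison in place of 8. FYN, a Src-family kinase that can phosphorylate CAV1, was among those with the widest range: it had 142 to 169 counts in MCF10A, 369 to 399 in MCF10AT1 and 8 to 9 in MCF10Ca1a, with log2 changes of 1.34 and -4.63 at the 2 steps. INSR, the insulin receptor, fell at both steps (-0.33 and -0.83), the first of which was not called on the deposited scaled counts (-0.32, edgeR adjusted p = 0.140) or without MCF10AT1 replicate 1 (-0.30, edgeR adjusted p = 0.0501). Neither INSR step was called with limma on unfiltered log2(TPM + 1) (-0.24 and -0.22, adjusted p = 0.0812 and 0.0680). PRKCA, protein kinase C alpha, rose at both (0.39 and 0.18). Its first step was not called with limma on log2(TPM + 1) (0.16, adjusted p = 0.155), nor its second by edgeR on scaled, length-scaled or unfiltered counts (0.15, 0.14 and 0.09, adjusted p = 0.142, 0.0834 and 0.268). The second call was also lost without MCF10AT1 replicate 1 or 2 or MCF10Ca1a replicate 1 or 3 (0.17, 0.13, 0.15 and 0.17, edgeR adjusted p = 0.0779, 0.140, 0.0956 and 0.0721). SRC was lowered in MCF10AT1 against MCF10A (-0.47). CD36, a fatty acid receptor, was the most raised in MCF10Ca1a against MCF10AT1 from 4 to 9 counts to 12 to 16. NOS3, the endothelial nitric oxide synthase that CAV1 binds, had 2 counts in each MCF10A library, 17 to 25 in MCF10AT1 and 6 to 11 in MCF10Ca1a.

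Genes that started within 500 kb of a member changed in both directions. Around CAV1 and CAV2, 8 other genes were tested. In MCF10AT1 against MCF10A, where CAV1 and CAV2 rose, 4 rose and 0 fell (median log2 change 0.10), where 29.8% of all genes tested were called higher and 31.8% lower. In MCF10Ca1a against MCF10AT1, where both members fell most, 2 rose and 4 fell (median -0.49), beside 38% and 40.3% of all genes. In MCF10Ca1a against MCF10A 2 rose, 2 fell and 4 were not called (median 0.09), where those shares were 39% and 41.9%. The 4, 6 and 4 of 8 called were below the shares of all genes called, 61.6%, 78.4% and 80.9%. CAPZA2, which encodes an actin-capping subunit, had the direction of CAV1 at both steps (0.30 and -1.09, edgeR adjusted p = 0.0137 and 1.53e-07), as did ST7-AS1 (0.95 and -1.38, edgeR adjusted p = 0.020 and 0.00437) and the antisense gene ENSG00000237813 (1.45 and -1.37, edgeR adjusted p = 3.07e-04 and 7.52e-04). These 3 were named after their values were seen. ENSG00000237813 overlaps CAV2 on the other strand and had 6 to 49 counts. The strand setting of the counting is not given, so its reads may not be fully separated from those of CAV2. The largest changes in MCF10Ca1a against MCF10A were those of COMETT, a long noncoding RNA (2.45), ST7 (-1.10) and MET, the hepatocyte growth factor receptor (0.91). TES, named here after its values were seen because it precedes CAV2, differed by 0.10 (SE 0.0484, edgeR adjusted p = 0.0649).

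Around CAVIN1, 35 genes were tested, and 18 rose and 6 fell in MCF10Ca1a against MCF10A (median log2 change 0.45), where 39% of all genes tested were called higher and 41.9% lower. In MCF10AT1 against MCF10A 8 rose and 19 fell, beside 29.8% and 31.8% of all genes, and in MCF10Ca1a against MCF10AT1 26 rose and 5 fell, beside 38% and 40.3%. CAVIN1 itself was not called in either. AOC3 and AOC2, a pair of amine oxidase genes, had the largest rises (6.56 and 4.55) and CNTNAP1 the largest fall (-4.43). STAT3 and ATP6V0A1, which start 34.9 and 35.3 kb from CAVIN1 and were also chosen after their values were seen, rose by 1.31 and 1.74. Around CAVIN3, 6 of 17 rose and 10 fell in MCF10Ca1a against MCF10A, against the same shares of all genes, led by APBB1 (-3.72), OR2AG2 (-2.91) and the long noncoding RNA gene ENSG00000267940 (-1.75).

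Only 2 genes could be tested around CAVIN2, and they moved in opposite directions. CAVIN2-AS1, an antisense transcript that overlaps the start of CAVIN2 on the other strand, had 44 to 56 counts in MCF10A, 34 to 42 in MCF10AT1 and 0, 0 and 2 in MCF10Ca1a. It was therefore low wherever CAVIN2 was low, while NABP1, a DNA-binding protein gene 169 kb away, rose by 1.21 (SE 0.0884, edgeR adjusted p = 1.50e-08) in MCF10Ca1a against MCF10A. The kit is stranded, but the strand setting of the counting is not given in the sources used here, so reads of CAVIN2 and its antisense partner may not be fully separated. The other genes that overlap a member had at most 49 counts in any library.

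**Figure D5:**
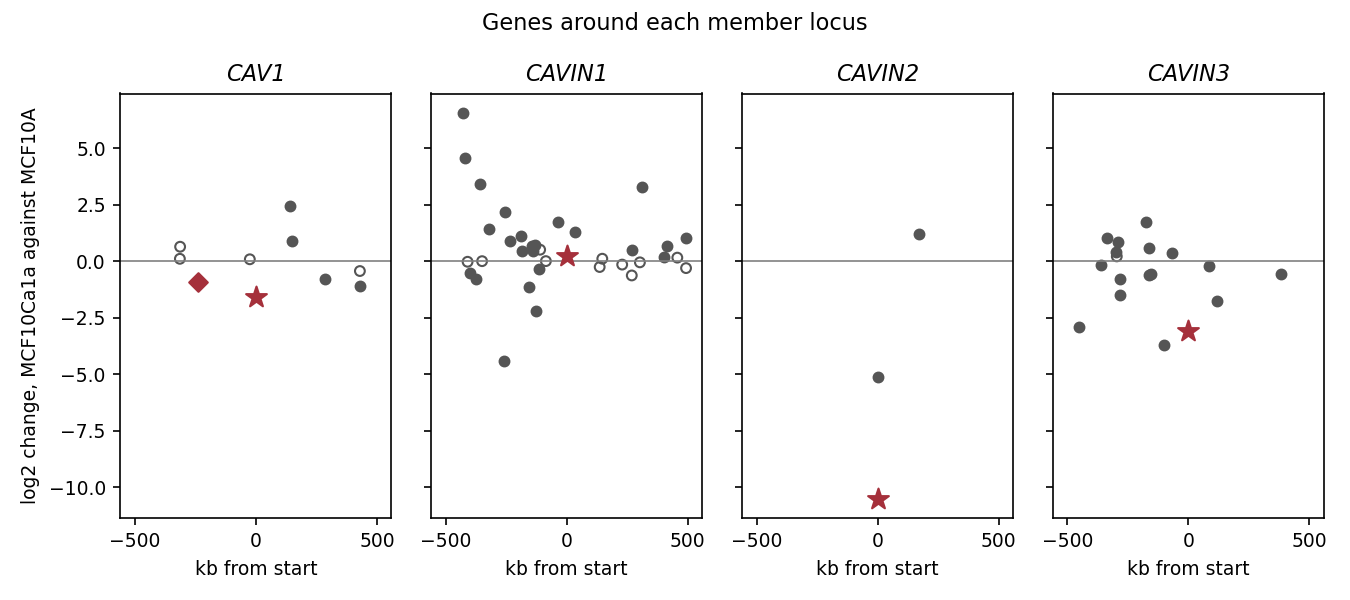
log2 change in MCF10Ca1a against MCF10A of each tested gene by the distance of its start from that of CAV1, CAVIN1, CAVIN2 or CAVIN3 (kb, in the direction of the member's transcription), filled where the edgeR adjusted p was under 0.05. Stars are the members and the diamond is CAV2 at its farthest upstream annotated start; COMETT and MET near CAV1 lie above 0 while CAV1 and CAV2 lie below.

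By likeness of profile, measured as the root mean square difference of centred log2 CPM over the 9 libraries, the members were not each other's nearest genes. The nearest to CAV1 were an unnamed gene (ENSG00000277534, 0.0561), C19orf48 (0.0646) and NEK4 (0.0715), and CAV2 ranked 655th of the 17910 genes tested, at 0.352. Those nearest to CAV2 were PPP1R37 (0.050), ECHDC1 (0.0509) and PTP4A1 (0.0526). CAVIN1 had CDC14B (0.0270), HNRNPUL1 (0.0338) and KHDRBS1 (0.0419), and CAVIN3 had DYNC2I2 (0.0647), CCNA2 (0.0741) and TNS2 (0.0902). CAVIN2 had no near match beyond EMD (0.266), which was followed by INPP5D (0.589) and IGFBP7 (0.726). This measure depends on the size of the changes, and the CAVIN2 profile rests on 1 to 3 counts in each MCF10Ca1a library. By Pearson correlation over the libraries, CAV1, CAV2, CAVIN2 and CAVIN3 stood at 0.928 to 0.993 with each other. With CAVIN1 they stood at -0.439 to -0.252. The 9 libraries are 3 lines, so a small difference or a high correlation describes 3 levels and the spread around them.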

How the data were processed

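RNA was sequenced from 3 libraries of each of 3 lines with a stranded polyA kit. The authors deposited gene and transcript tables of estimated counts and of TPM, with length-scaled and scaled counts; Salmon and hg38 are named in the submitters' processing notes, and the annotation and strand setting are not given in the sources used here. The deposited TPM allow for transcript length and were used for levels. Gene counts were rounded and tested with edgeR 4.0.16 (R 4.3.3; TMM; filterByExpr, minimum count 10 and minimum total 15; quasi-likelihood fit of all 9 libraries on line; Benjamini-Hochberg threshold 0.05). Transcript shares were tested with limma 3.58.1 on log2 ratios to the rest of the gene, with a pseudocount of 0.5, for 71093 of 252876 transcripts (at least 10 counts in 3 libraries). Both procedures were run on simulated data in which far fewer genes changed than here and all had a common spread. Those runs therefore do not show how the procedures perform on these data. Splitting reads among transcripts is an estimate, which affects shares and TPM more than gene counts.

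Alternatives were DESeq2 1.42.0 (its size factors, and its Wald test), no low-count filter, the length-scaled and scaled counts, a replicate block, only the lines compared, limma on log2(TPM + 1) and log2(TPM + 0.1) for genes of at least 0.5 TPM in 3 libraries or unfiltered, and leaving out each library. For shares they were a pseudocount of 1, at least 50 counts, TPM shares and the block. Named genes were all members, list genes called the same way at both steps, the most raised and lowered of each list, those at 0, the 3 nearest in profile, the 3 most changed neighbours within 500 kb of each locus, and exceptions stated where they occur. Further exceptions were EHD2, DNM1, PACSIN1, ERLIN2 and the cell type markers. The members, lists and rules were chosen with earlier results of these data known. Positions and transcript sequences are from GENCODE 29 on GRCh38, whose identifiers matched 58227 of 62666 genes.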

Additional observations from a re-analysis of the deposited data

How the results depend on the processing

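Of 876 recomputed values in all, 823 were judged unchanged. Among these values, counts of genes called and ratios between members have no p-value and were judged by size alone. Length-scaled counts give the same ratio differences between lines by construction. Of the 285 member changes, 266 kept their side of the 0.05 threshold and, where called, their direction. All changes of CAV1, CAV2 and CAVIN3, and those of CAVIN2 in MCF10Ca1a, were among them. For CAVIN1 without a low-count filter, MCF10AT1 against MCF10A passed (0.19, edgeR adjusted p = 0.0149) and MCF10Ca1a against MCF10A did not (0.13, edgeR adjusted p = 0.0928). The latter also missed with length-scaled counts (0.19, edgeR adjusted p = 0.0740), scaled counts (0.20, edgeR adjusted p = 0.0754) and unfiltered log2(TPM + 1) (0.36, limma adjusted p = 0.0503). CAVIN1 in MCF10Ca1a against MCF10AT1 passed with limma on log2(TPM + 1) (0.33, adjusted p = 0.0224) and log2(TPM + 0.1) (0.33, adjusted p = 0.0239), and ranged from -0.06 to 0.33 over 10 settings. CAVIN2 in MCF10AT1 against MCF10A missed on the TPM scale in all 3 versions (0.15, with limma adjusted p = 0.189 on log2(TPM + 1), 0.345 on log2(TPM + 0.1) and 0.299 unfiltered). Leaving out 1 library at a time gave CAVIN1 changes of 0.11 to 0.31 for MCF10AT1 and 0.13 to 0.32 for MCF10Ca1a, both against MCF10A. The cause of these differences was not tested.

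Receptors and kinases called in MCF10AT1 against MCF10A numbered 5 with scaled counts, 4 with unfiltered TPM, and 6 to 13 with 1 library left out. In MCF10Ca1a against MCF10A they numbered 9 on log2(TPM + 1), 9 on log2(TPM + 0.1) and 8 unfiltered, and in MCF10Ca1a against MCF10AT1 6 unfiltered. Unfiltered TPM also called 5 accessory genes in MCF10AT1 against MCF10A. Over 10 settings, genes called numbered 8892 to 11649, 12205 to 15312 and 12342 to 16050 in the 3 comparisons. For shares in MCF10AT1 against MCF10A, TPM shares gave CAV1-201 a change of -0.46 (limma adjusted p = 0.0567), and leaving out 1 library gave -0.64 to -0.59 for it and 0.75 to 0.81 for CAV1-202.

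Replicate numbers did not pair the libraries: deviations from the line means correlated at -0.06 to 0.05 over the 9 same-number pairs, against -0.07 to 0.10 over the 18 others. With the replicate number as a block no member gene changed its call, while the shares of CAV1-201 (-0.61, limma adjusted p = 0.0840) and CAV1-202 (0.78, limma adjusted p = 0.0800) in MCF10AT1 against MCF10A did not pass. Replicates differed by more than counting noise (chi-square per degree of freedom 2.51 to 74.9, the highest between MCF10A replicates 1 and 3), so none was merged. Depth limits CAVIN2 in MCF10Ca1a, where 5 counts in all carry the estimate.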
